A study of Saccharomyces cerevisiae with 26 samples.

Results

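The late response of a galactose-grown yeast culture to a large glucose pulse was compared with the late response to a pulse a factor of 10 smaller. Of the 26 arrays of the study, 6 were used for the comparison itself, namely those whose titles give a pulse of 2 g/l or 0.2 g/l and a time of 90, 120 or 150 min. Values are log2 ratios to t=0. The arrays were paired by time, the spots of a gene were averaged, and each difference is the value after 2 g/l minus the value after 0.2 g/l. The cells were Saccharomyces cerevisiae growing on galactose in a chemostat, a vessel in which fresh medium holds the culture at a constant growth rate, and the labels name no strain or genotype. Every array set total RNA at a stated time after the pulse (labelled Cy5) against RNA of the culture at t=0 (labelled Cy3), so both groups share the galactose medium and differ in the pulse. After 2 g/l there were 14 arrays from 3 to 240 min, and after 0.2 g/l there were 12 arrays from 2 to 150 min.

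Yeast cells take up and ferment glucose in preference to other sugars. Glucose induces hexose transporter genes through the Snf3 and Rgt2 sensors, and it represses the genes for galactose use, gluconeogenesis and the glyoxylate cycle, in part through the Mig1 repressor and the control of the Snf1 kinase. The same sugar raises growth-related genes and lowers stress genes of the Msn2 and Msn4 activators through protein kinase A. The genes of high-affinity iron uptake form a separate group under the activators Aft1 and Aft2, which act when iron is short.

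Each time was measured on 1 array from 1 culture per pulse. The spread behind every SD and p value is therefore a spread between time points, and dose and culture cannot be told apart. Each SE and p value of the limma fit rests on the residual spread over all 26 arrays. Real change up to 10 min and from 180 to 240 min adds to that spread. Change within 15 to 45 min or 90 to 150 min adds only where it differs between the pulses. A block for each of these times takes up the shared part. An SE can therefore be larger than the late arrays alone would give. The arrays in the fit also move the number of genes at a limma adjusted p under 0.05. It was 141 here, and with the 6 late arrays alone 33 with the block and 171 without it. Each pulse also has a t=0 reference of its own. Whether all arrays of a pulse used the same t=0 extract is not stated, and if they did, an offset between the references would add to all times alike. On the 6 arrays 8407 to 9169 spots had a value, and duplicate spots of a gene correlated, across genes, with r of 0.41 to 0.58. The array of 0.2 g/l at 90 min was the least like the rest of its window across genes (r = 0.443, against 0.631 to 0.813 for the other 5), and 4.94% of the genes lacked a value there.

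At 90 to 150 min many of the genes that differed between the pulses were away from t=0 after 2 g/l and near it after 0.2 g/l. Genes for 3 hexose transporters, for the last steps of glycolysis and for pyruvate decarboxylase stood higher after the large pulse, while a number of genes for gluconeogenesis, the glyoxylate cycle, the stress response and iron uptake stood lower. Of 5362 genes tested, limma called 141 at a Benjamini-Hochberg adjusted p under 0.05 (2.63%), of which 47 were higher (0.877%) and 94 lower (1.75%) after 2 g/l. At an unadjusted p under 0.05 there were 892 genes (16.6%). The differences of the called genes ran from -3.09 to 3.97 on the log2 scale, the smallest in size was 0.57, and 78 genes (30 higher, 48 lower) differed at least 2-fold. The median difference over all genes tested was 0.04. The count fell to 38, 36 and 24 without the pair of arrays at 90, 120 and 150 min, and 16 genes were called in all 3 of these fits while 96 were called in none.

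The 3 arrays after 2 g/l did not overlap the 3 arrays after 0.2 g/l for 139 of the 141 called genes. The exceptions were NAT4 and RRN7. Groups of 3 arrays separate easily, and 1709 of all genes tested (31.9%) had arrays that did not overlap, 828 of them higher (15.4%) and 881 lower (16.4%) after 2 g/l. Among the 47 higher genes, 31 had a mean more than 0.5 away from t=0 after 2 g/l and within 0.5 of it after 0.2 g/l, 10 showed the reverse, 5 were away from t=0 after both pulses, and 1 was near it after both. The corresponding counts among the 94 lower genes were 55, 8, 17 and 14. In 17 higher and 52 lower genes all 3 arrays of each pulse lay on opposite sides of t=0. The genes were called by their late difference, which by itself favours values away from t=0 or on opposite sides of it. The same counts over all genes are not given here, so these describe the called genes only.

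**Figure D1:**
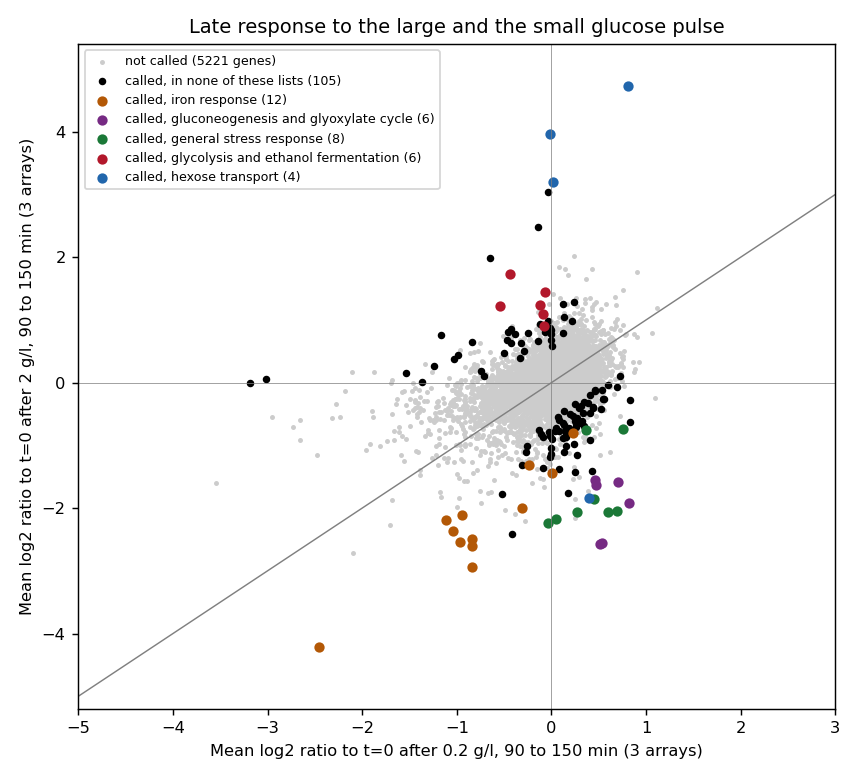
Mean log2 ratio to t=0 over the 3 late arrays after 2 g/l (vertical axis) against the mean after 0.2 g/l (horizontal axis), 1 point a gene, with the diagonal marking equal values. Called genes are coloured by list, and the called hexose transporter genes, glycolysis genes, gluconeogenesis genes and stress genes lie mostly near 0 on the horizontal axis while 12 called iron genes lie below the diagonal.

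Hexose transporter genes held the largest positive differences. HXT2 (YMR011W), which encodes a high-affinity transporter, read 4.29, 4.23 and 3.36 at 90, 120 and 150 min after 2 g/l and -0.37, 0.10 and 0.23 after 0.2 g/l. The 3 arrays after the large pulse were all far above those after the small pulse, which lay near t=0. The difference was 3.97 ± 1.03 (SE), a fold of 15.7, with a limma adjusted p of 0.0474. Leaving out the pair at 90, 120 or 150 min gave adjusted p of 0.263, 0.177 and 0.133 for HXT2.

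HXT7 (YDR342C), for a high-affinity transporter, stood at 4.08, 4.76 and 5.34 after 2 g/l and at 0.92, 0.73 and 0.79 after 0.2 g/l. Both cultures were above t=0 at all 3 times, without overlap. The difference was 3.91 ± 0.65, a fold of 15.1 (limma adjusted p = 0.00414), and the call was lost only without the pair at 150 min (adjusted p = 0.0581, against 0.0352 without 90 min and 0.041 without 120 min). Its neighbour HXT6, nearly identical in sequence, was not tested, and the spots cannot tell the pair apart. HXT4 (YHR092C), for another transporter of high affinity, read 3.47, 2.98 and 3.16 against -0.16, 0.15 and 0.07. The large-pulse arrays were again all higher, and the difference of 3.18 ± 0.70 (9.06-fold) had a limma adjusted p of 0.023, with 0.166, 0.0886 and 0.107 without 90, 120 and 150 min.

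HXT5 (YHR096C), for a transporter made by slowly growing and starved cells, moved the other way. Its values were -1.82, -2.11 and -1.61 after 2 g/l and 0.54, 0.16 and 0.48 after 0.2 g/l, below t=0 on every large-pulse array and above it on every small-pulse array. HXT5 was 4.73-fold lower after 2 g/l (-2.24 ± 0.38, limma adjusted p = 0.00472), and it was called without each pair in turn (adjusted p = 0.0457, 0.0428 and 0.04). Of the 14 hexose transporter genes tested, 3 were higher and 1 lower (0.877% and 1.75% of all genes), with a median difference of -0.03. The 3 higher calls fell to 1, 1 and 0 without the pairs at 90, 120 and 150 min.

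The other 10 transporter genes were not called. HXT1, for the low-affinity transporter of glucose-rich cells, read 2.53, 1.52 and 1.38 after 2 g/l and 0.34, 0.04 and 0.06 after 0.2 g/l, which did not overlap (difference 1.66 ± 0.84, limma adjusted p = 0.334). HXT13, HXT15, HXT16 and HXT17, whose sequences are closely alike and whose signals cannot be told apart here, had differences of -1.11, -0.45, -0.62 and -0.45. HXT13 went from -4.13 at 90 min to 0.05 at 150 min after 2 g/l. The remaining differences were -0.70 for HXT12, -0.12 for HXT9 (over 2 pairs), 0.05 for HXT10, 0.22 for HXT11 and 0.41 for HXT8. HXT3 and HXT14 had too few values to test.

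The sensors and signalling genes that act on these transporters mostly missed the threshold. HXK2 (YGL253W), which encodes the main hexokinase on glucose, read 0.62, 0.59 and 0.71 after 2 g/l and -0.06, -0.38 and -0.52 after 0.2 g/l. All large-pulse arrays were above t=0 and all small-pulse arrays below it, and HXK2 was 1.95-fold higher after 2 g/l (0.96 ± 0.24, limma adjusted p = 0.0416). Its adjusted p was 0.13, 0.158 and 0.237 without the 3 pairs in turn. It was the only 1 of 18 tested genes of glucose sensing that was called (0.877% of all genes were called higher and 1.75% lower). Of the 18, 7 had arrays that did not overlap, all higher after 2 g/l (15.4% of all genes), and the median difference was 0.22.

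STD1 and MTH1, which encode corepressors of hexose transporter genes, had differences of 1.77 (adjusted p = 0.104) and 1.38 (adjusted p = 0.168) in the limma fit. MTH1 read 1.23, 1.93 and 2.27 after 2 g/l against 0.63, 0.26 and 0.40 after 0.2 g/l, and STD1 read 2.20, 2.06 and 1.28 against 0.20, 0.07 and -0.05. MIG1, for the glucose repressor, read 0.74, 1.16 and 0.96 against 0.19, -0.20 and 0.08 (difference 0.93, adjusted p = 0.358). None of the 3 overlapped between the pulses. The sensor genes RGT2 and SNF3 had differences of -0.10 and 1.37, the latter over 2 pairs.

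Glycolysis and ethanol fermentation gave 6 called genes of 20, all higher after 2 g/l, with a median difference of 0.65. Of all genes tested, 0.877% were called higher. Arrays did not overlap for 11 higher genes and 1 lower gene of the 20 (15.4% and 16.4% of all genes). PDC1 (YLR044C), for the main pyruvate decarboxylase of alcoholic fermentation, read 2.20, 1.66 and 1.34 after 2 g/l and -0.38, -0.50 and -0.45 after 0.2 g/l. It was above t=0 on all large-pulse arrays and below it on all small-pulse arrays. PDC1 was 4.51-fold higher (2.17 ± 0.32, limma adjusted p = 0.00306), also without each pair in turn (adjusted p = 0.0423, 0.0406 and 0.0259).

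PDC5 (YLR134W), for a second pyruvate decarboxylase, read 1.78, 1.02 and 0.87 against -0.16, -0.67 and -0.79. Its arrays lay on opposite sides of t=0 as well, with a difference of 1.76 ± 0.29 (limma adjusted p = 0.00414). CDC19 (YAL038W), for the main pyruvate kinase, read 1.92, 1.64 and 0.75 against 0.18, 0.16 and -0.56. The large-pulse values fell with time but stayed above all small-pulse values, and the difference was 1.51 ± 0.24 (limma adjusted p = 0.00344). PDC5 and CDC19 were called without each pair in turn, with a highest adjusted p of 0.0457 for PDC5 and 0.0452 for CDC19.

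The other called genes of the list were ENO2 (1.36), ENO1 (1.18) and GPM1 (0.98), for enolase and phosphoglycerate mutase. The ENO1 and ENO2 sequences are closely alike, and cross-hybridisation between them cannot be told apart. These 3 lost their calls when any 1 pair was left out, so that 3 of 20 genes were called without 90, 120 or 150 min, and ENO2, ENO1 and GPM1 were chosen for mention after their values were seen. PGI1, PFK1 and PFK2, for phosphoglucose isomerase and phosphofructokinase of the upper steps, had differences of 0.20, 0.42 and 0.27 and were not called. TDH2, TDH3 and PGK1, for the steps in between, had 0.05, 0.14 and 0.12. GLK1, for glucokinase, had the lowest difference of the list at -0.81 (adjusted p = 0.501). HXK1, for the second hexokinase, read 0.35, 2.23 and 3.46 after 2 g/l and 0.39, 0.05 and 0.26 after 0.2 g/l, so that the pulses overlapped through 90 min only (difference 1.78, adjusted p = 0.284).

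PFK27 (YOL136C) encodes a 6-phosphofructo-2-kinase, which makes the fructose 2,6-bisphosphate that activates glycolysis. It read 2.66, 2.83 and 1.93 after 2 g/l and -0.03, -0.24 and -0.15 after 0.2 g/l. The small pulse had returned it to t=0 and the large pulse had not, and it was 6.12-fold higher after 2 g/l (2.61 ± 0.54, limma adjusted p = 0.0146). Without the pairs at 90, 120 and 150 min the adjusted p was 0.112, 0.112 and 0.0691. ARI1 (YGL157W), for an NADPH-dependent aldehyde reductase, read 3.44, 3.00 and 2.67 against -1.09, 0.59 and 0.39, a difference of 3.07 ± 0.69 (limma adjusted p = 0.0243, and 0.243, 0.0816 and 0.0748 without the 3 pairs).

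**Figure D2:**
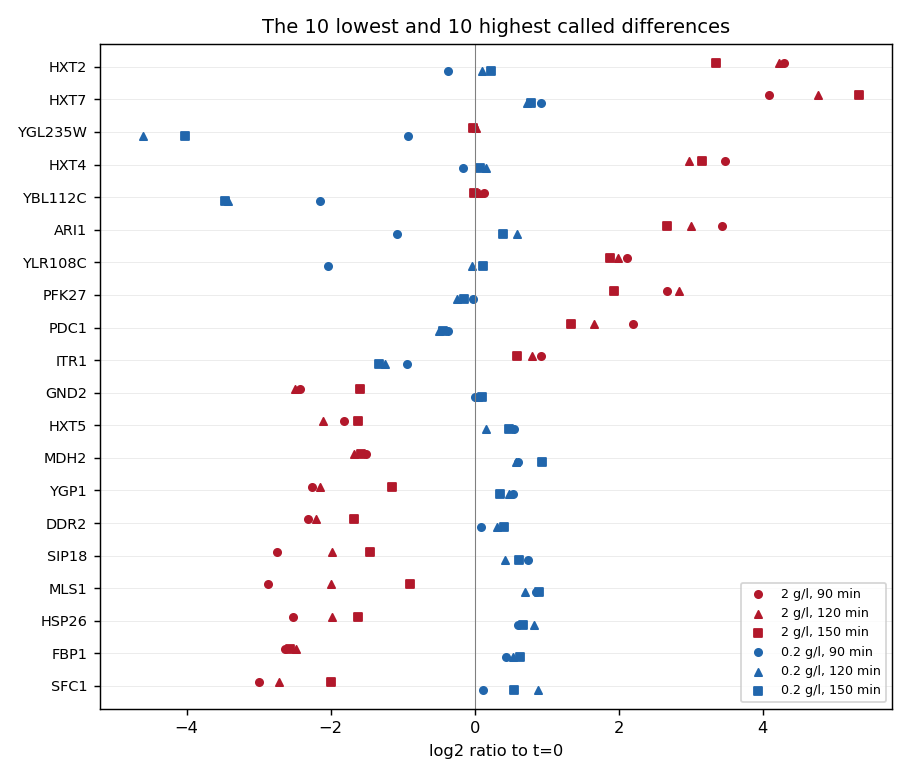
Log2 ratio to t=0 on each of the 6 late arrays (horizontal axis) for the 10 called genes with the highest and the 10 with the lowest difference, red for 2 g/l and blue for 0.2 g/l, with the symbol giving the time. HXT2, HXT7, HXT4, ARI1 and PFK27 stand apart through high values after 2 g/l, YGL235W and YBL112C through low values after 0.2 g/l, and the 10 lowest genes are all below t=0 after 2 g/l and at or above it after 0.2 g/l.

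Of 24 genes for gluconeogenesis and the glyoxylate cycle, which make sugar from carbon compounds such as ethanol and acetate, 6 were lower after the large pulse and none was higher. The shares of all genes tested were 1.75% lower and 0.877% higher. FBP1 (YLR377C), for fructose-1,6-bisphosphatase, the enzyme that commits carbon to gluconeogenesis, read -2.63, -2.48 and -2.56 after 2 g/l and 0.43, 0.53 and 0.63 after 0.2 g/l. The values hardly moved with time in either culture and lay on opposite sides of t=0. FBP1 was 8.51-fold lower after 2 g/l (-3.09 ± 0.51, limma adjusted p = 0.00414), and without the pairs at 90, 120 and 150 min the adjusted p was 0.0438, 0.0406 and 0.0501.

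SFC1 (YJR095W), for the mitochondrial carrier that exchanges succinate for fumarate, read -3.0, -2.72 and -2.0 against 0.11, 0.89 and 0.55 (difference -3.09 ± 0.80, limma adjusted p = 0.0456). MLS1 (YNL117W), for malate synthase of the glyoxylate cycle, read -2.87, -1.99 and -0.90 against 0.85, 0.70 and 0.90 (difference -2.74 ± 0.69, adjusted p = 0.0415). Neither gene overlapped between the pulses, and MLS1 moved back towards t=0 within the window after 2 g/l. MDH2 (YOL126C), for cytosolic malate dehydrogenase, read -1.50, -1.68 and -1.58 against 0.60, 0.57 and 0.93, with a difference of -2.29 ± 0.54 (limma adjusted p = 0.0323). PCK1 (YKR097W), for phosphoenolpyruvate carboxykinase, differed by -2.10 ± 0.40 (adjusted p = 0.0103), and IDP2 (YLR174W), for cytosolic isocitrate dehydrogenase, by -2.01 ± 0.40 (adjusted p = 0.0126). Both were chosen for mention after their values were seen.

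The median difference of the 24 genes was -0.87, and 5 had a difference above 0. After quantile normalization 10 of them were called lower and 1 higher (381 and 244 of all 5362 genes). Without the pairs at 90, 120 and 150 min 1, 1 and 0 of them were called, while the median of the list was -0.87, -0.82 and -0.81. Arrays did not overlap for 15 lower genes and 1 higher gene of the 24 (16.4% and 15.4% of all genes). Among the uncalled members, SIP4, for an activator of gluconeogenic genes, differed by -1.72 (adjusted p = 0.0866) and JEN1, for the lactate and pyruvate carrier, by -1.32 (adjusted p = 0.244). The genes for the regulators CAT8 (over 2 pairs) and ADR1 had differences of 0.05 and 0.31, and ADH2, for the ethanol-consuming alcohol dehydrogenase, had 0.24.

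Galactose genes were on their way back during this window, and limma called 0 of 9, with 3 at an unadjusted p under 0.05. GAL1, for galactokinase, read -2.17, -0.72 and 0.14 after 2 g/l and 0.49, 0.26 and 0.40 after 0.2 g/l. All large-pulse values were below all small-pulse values, and the gap closed from 90 to 150 min (difference -1.30 ± 0.49, adjusted p = 0.175). GAL2, for the galactose permease, read -2.98, -1.74 and 0.10 against 0.74, -0.04 and 0.00, so that the arrays overlapped at 150 min (difference -1.77, adjusted p = 0.296). The structural genes GAL7 and GAL10 and the regulatory gene GAL3 had differences of -1.24, -1.14 and -0.40, GCY1 and PGM2 had -1.19 and -1.06, and GAL4 and GAL80 had -0.23 and -0.02. The median of the list rose from -2.19 at 90 min through -1.01 to 0.04 at 150 min, and the median of the late differences, -1.14, was -0.49 without the pair at 90 min.

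**Figure D3:**
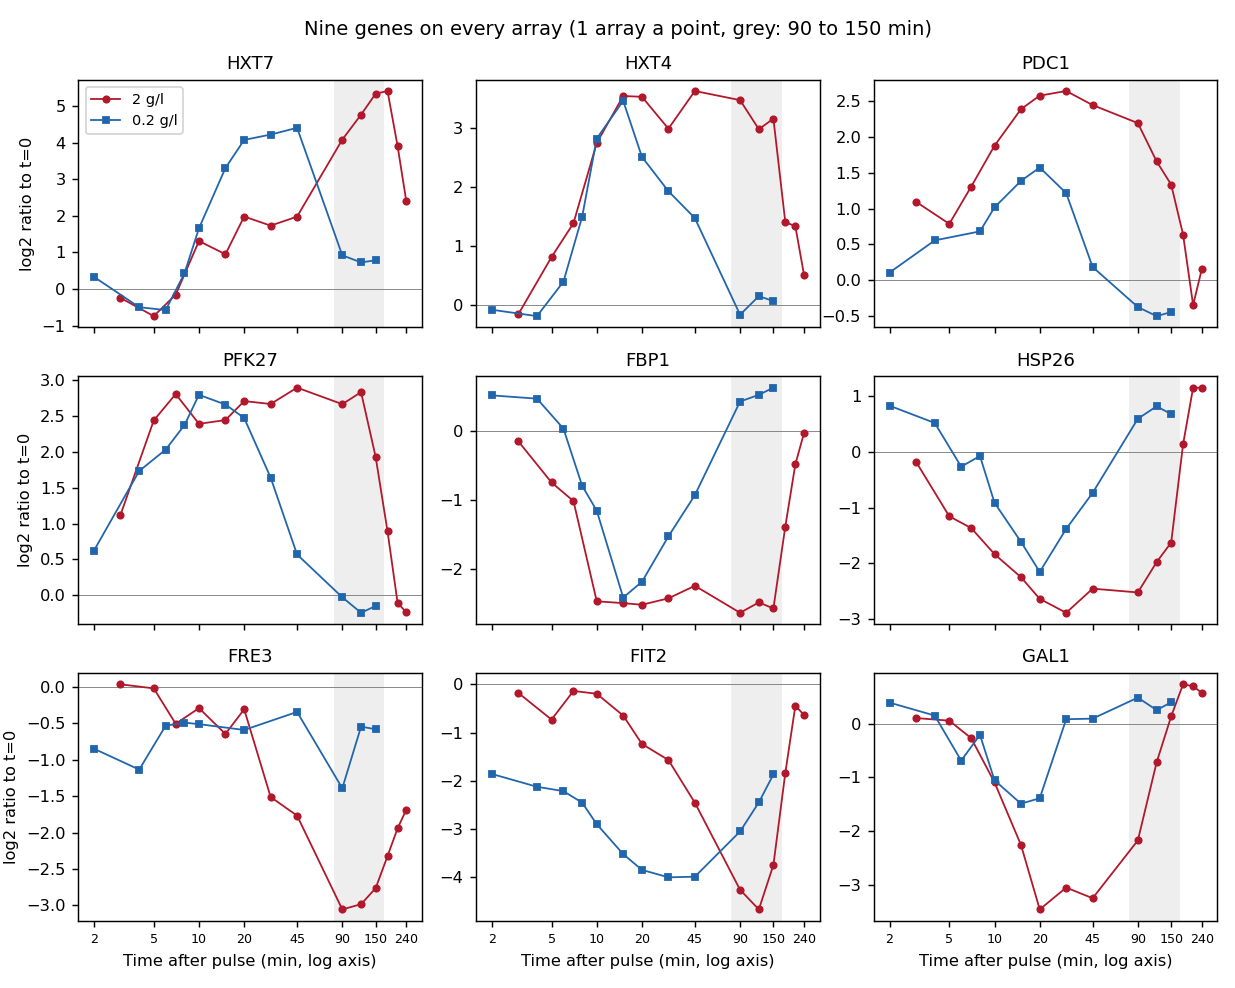
Log2 ratio to t=0 on every array (vertical axes, which differ between panels) against time after the pulse on a log axis for 9 genes, red for 2 g/l and blue for 0.2 g/l, with 90 to 150 min shaded. After 0.2 g/l, HXT4, PDC1, PFK27, FBP1, HSP26 and GAL1 lie between -0.50 and 0.82 in the shaded window. After 2 g/l these 6 move towards t=0 during or after the window, HSP26 past it, and a return was not tested. HXT7 and FIT2 change sides between 45 and 90 min.

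Of 49 stress genes 8 were lower after the large pulse and none was higher (1.75% and 0.877% of all genes tested). GND2 (YGR256W), for the minor 6-phosphogluconate dehydrogenase, had the lowest p of all genes tested. It read -2.43, -2.50 and -1.59 after 2 g/l and 0.00, 0.04 and 0.11 after 0.2 g/l. The small-pulse arrays were at t=0 and the large-pulse arrays well below it, a difference of -2.23 ± 0.22 (4.68-fold lower, limma adjusted p = 5.75e-05), and the highest adjusted p without 1 pair was 0.00468.

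HSP26 (YBR072W), for a small heat shock protein, read -2.52, -1.98 and -1.63 after 2 g/l and 0.59, 0.82 and 0.68 after 0.2 g/l. It was below t=0 on all large-pulse arrays and above it on all small-pulse arrays, a difference of -2.74 ± 0.44 (6.68-fold lower, limma adjusted p = 0.00344). DDR2 (YOL052C-A), a stress gene of the Msn2 and Msn4 activators, differed by -2.33 ± 0.38 (adjusted p = 0.00344), and YGP1 (YNL160W), for a secreted glycoprotein, by -2.30 ± 0.34 (adjusted p = 0.00306). GND2 and these 3 genes were called without each pair in turn. SIP18 (YMR175W), for a desiccation-related hydrophilin, read -2.74, -1.98 and -1.45 against 0.75, 0.42 and 0.61, a difference of -2.65 ± 0.51 (limma adjusted p = 0.0103, and 0.141, 0.0622 and 0.0516 without the 3 pairs).

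The stress list had a median difference of -0.69, 6 genes with a difference above 0, and 25 lower genes with arrays that did not overlap (16.4% of all genes). After quantile normalization 18 of its genes were called lower, as were 381 of all 5362 genes. The remaining 3 lower genes, named after their values were seen, were GRE1 (-2.21), HSP12 (-1.50) and PAI3 (-1.13). Leaving out any 1 pair left 4 lower genes. CTT1, for cytosolic catalase, and HSP104, for the disaggregase, had differences of -0.45 and -0.74 and were not called (adjusted p = 0.793 and 0.416). Of the 22 genes for trehalose and glycogen metabolism limma called 0, with 2 at an unadjusted p under 0.05 and a median difference of -0.24.

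Iron genes gave the most lower calls of the 40 lists examined. Of 27 tested, 12 were lower after 2 g/l and 0 higher (1.75% and 0.877% of all genes), and the median difference was -0.78. The arrays did not overlap for 19 lower and 2 higher genes (16.4% and 15.4% of all genes). Most of the 27 lay below t=0 after both pulses: 24 were below it on all arrays after 2 g/l, and 17 after 0.2 g/l. Over all 5362 genes these counts were 1589 and 1125. Without the pairs at 90, 120 and 150 min the lower calls numbered 7, 2 and 6, with medians of -0.81, -0.82 and -0.92.

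Among the genes for reductases of ferric iron or siderophore-bound iron, FRE3 (YOR381W) read -3.06, -2.98 and -2.76 after 2 g/l and -1.39, -0.55 and -0.58 after 0.2 g/l. All arrays were below t=0 and the pulses did not overlap. FRE3 was 4.27-fold lower after the large pulse (-2.09 ± 0.29, limma adjusted p = 0.00239), with a highest adjusted p of 0.0406 without 1 pair. FRE2 (YKL220C) differed by -1.68 ± 0.30 (adjusted p = 0.0074) and FRE1 (YLR214W) by -1.65 ± 0.30 (adjusted p = 0.00743), both called without 90 min but not without 120 min (0.0709 each) or 150 min (0.0581 and 0.0691). FRE4, FRE5 and FRE6 had differences of 0.44, -0.56 and -0.56, the first over 2 pairs, and were not called.

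The siderophore genes serve iron carried by small chelators. SIT1 (YEL065W), for a ferrioxamine transporter, read -3.06, -2.92 and -1.83 after 2 g/l and -1.12, -0.72 and -0.69 after 0.2 g/l. It was below t=0 throughout, lower after the large pulse at every time, with a difference of -1.76 ± 0.25 (3.40-fold lower, limma adjusted p = 0.00239) that was called without each pair in turn. FIT2 (YOR382W), for a cell wall mannoprotein that holds siderophore iron, had the lowest mean of the list relative to t=0 after each pulse, at -4.26, -4.66 and -3.74 after 2 g/l and -3.05, -2.45 and -1.87 after 0.2 g/l (difference -1.77 ± 0.34, adjusted p = 0.0104). ENB1 (YOL158C), for the enterobactin transporter, differed by -1.58 ± 0.28 (adjusted p = 0.0074) and ARN1 (YHL040C), for a ferrichrome transporter, by -1.33 ± 0.24 (adjusted p = 0.0074). Without 120 min the adjusted p was 0.102 for FIT2, 0.0732 for ENB1 and 0.0732 for ARN1, so that these 3 lost their calls. FIT2 lost its call also without 150 min (0.0768), and ARN1 also without 90 min (0.0718). FIT3 differed by -0.62 (adjusted p = 0.127), and FIT1 and ARN2 were higher after 2 g/l without a call, by 0.69 and 0.91.

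FET3 (YMR058W), for the multicopper ferroxidase of high-affinity uptake, read -2.04, -2.34 and -1.96 after 2 g/l and -0.95, -0.98 and -0.91 after 0.2 g/l. The large-pulse arrays were all lower, by 1.17 ± 0.23 on the log2 scale (limma adjusted p = 0.0108). CCC2 (YDR270W), for the copper pump that loads Fet3, differed by -1.08 ± 0.21 (adjusted p = 0.0108). FTR1, for the permease partner of Fet3, read -1.89, -1.32 and -1.45 after 2 g/l and -0.74 and -0.47 at 120 and 150 min after 0.2 g/l, with no value at 90 min (difference -0.78 over 2 pairs, adjusted p = 0.246). Without the pairs at 90, 120 and 150 min FET3 had adjusted p of 0.0717, 0.0911 and 0.0691, and CCC2 had 0.152, 0.0906 and 0.0259.

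Inside the cell, HMX1 (YLR205C), for the heme oxygenase that frees iron from heme, read -1.79, -1.44 and -1.10 after 2 g/l and -0.15, 0.20 and -0.03 after 0.2 g/l. HMX1 was near t=0 after the small pulse and below it after the large one (difference -1.45 ± 0.27, limma adjusted p = 0.00938). TIS11 (YLR136C), for a protein that promotes decay of mRNAs of iron-using proteins, differed by -1.08 ± 0.27 (adjusted p = 0.0415), and ISU1 (YPL135W), for the scaffold of iron-sulfur cluster assembly, by -1.03 ± 0.20 (adjusted p = 0.0103). Leaving out 120 min ended all 3 calls (adjusted p = 0.0821, 0.266 and 0.0765), as did leaving out 90 min (0.0842, 0.223 and 0.0717), while without 150 min HMX1 was called (0.038) and TIS11 (0.0581) and ISU1 (0.0748) were not. The vacuolar and mitochondrial genes FET5, FTH1, MRS4 and SMF3 had differences of -0.86, -0.59 (over 2 pairs), -0.70 and -0.47, and ISU2, ATX1, CTH1 and VHT1 had -0.30, -0.41, -0.04 and -0.20. None of these 8 was called.

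**Figure D4:**
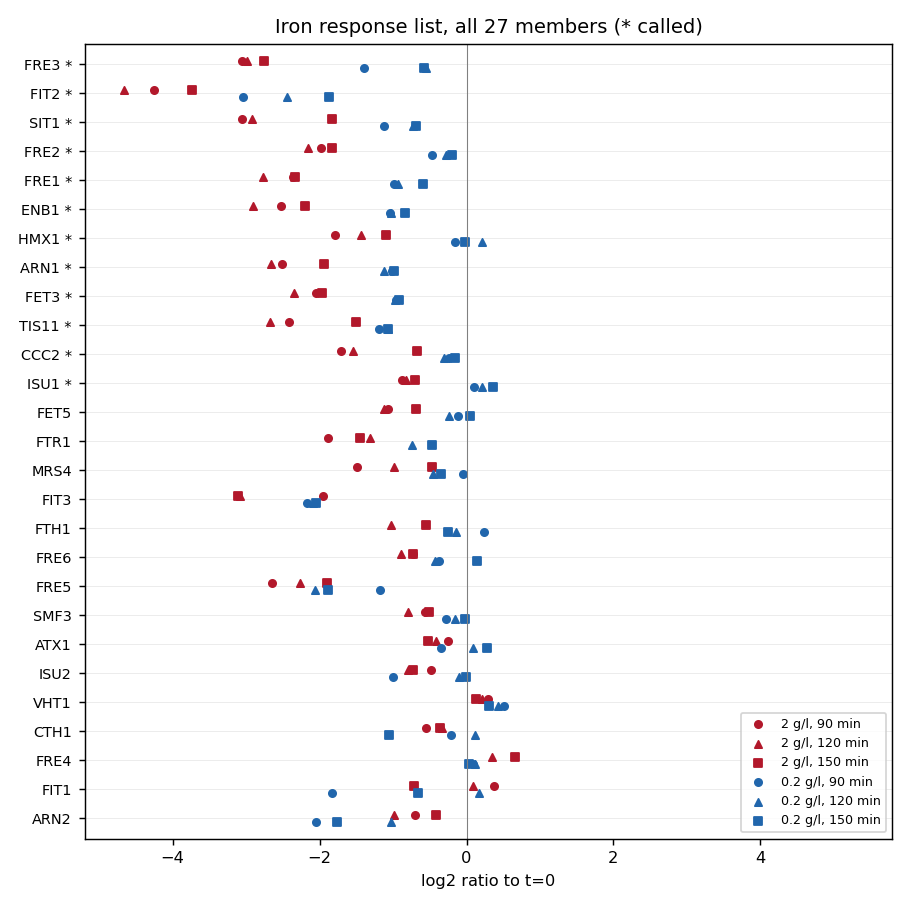
Log2 ratio to t=0 on each of the 6 late arrays (horizontal axis) for all 27 tested genes of the iron list, ordered by difference, red for 2 g/l and blue for 0.2 g/l, with the symbol giving the time and a star marking the 12 called genes. The red symbols lie left of the blue ones for the called genes, and FIT2 has the lowest mean after each pulse, although FIT3 and FRE5 lie left of it at 150 min after 0.2 g/l.

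The median difference of the iron list had the opposite sign before 90 min. FET3 was at -0.25 ± 0.37 after 2 g/l and -1.45 ± 0.08 after 0.2 g/l at 15 to 45 min (mean ± SD over 4 arrays each), and FIT2 at -1.48 ± 0.75 and -3.84 ± 0.22. At 10, 15, 20, 30 and 45 min the median difference of the list was 0.78, 0.98, 0.86, 0.73 and 0.58, and at 90, 120 and 150 min it was -1.15, -0.88 and -0.80. Not every gene followed: at 30 min 4 of 21 genes with both values and at 45 min 7 of 26 were already lower after 2 g/l, among them FRE3 (-1.77 against -0.34 at 45 min) and FRE2 (-1.40 against -0.35). After 0.2 g/l the list was already below t=0 at the first times, with FET3 at -1.11 and FIT2 at -1.86 by 2 min, so a difference between the t=0 references may lie in these values and was not tested. The late difference was also taken relative to the early one (3 to 10 min after 2 g/l, 2 to 10 min after 0.2 g/l), an alternative chosen after seeing the data, in which an offset cancels only if it is the same at all times. For the iron list the early difference had the opposite sign (median 0.76), so the 15 lower genes and the median of -1.68 on that scale follow from its construction and do not bear on the late difference. The calls of the other groups mostly ended on that scale, with 0 lower of 24 genes for gluconeogenesis and the glyoxylate cycle (median -0.86), 1 lower of 49 stress genes (GND2, median -0.36), 1 higher of 20 genes for glycolysis and fermentation (CDC19, median 0.64) and 1 higher of 14 hexose transporter genes (HXT7, median 0.92).

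The genes outside these groups that led the higher side differed in which culture had left t=0. YGL235W, an uncharacterised gene, read -0.01, 0.02 and -0.02 after 2 g/l and -0.93, -4.61 and -4.03 after 0.2 g/l. The large-pulse arrays were at t=0, the small-pulse arrays were below it with a wide spread, and the difference was 3.18 ± 0.66 (limma adjusted p = 0.0206, and 0.158 and 0.145 without 120 and 150 min). YBL112C, a gene next to a telomere whose sequence recurs at other chromosome ends, read 0.13, 0.06 and 0.00 against -2.14, -3.43 and -3.46 (3.07 ± 0.62, adjusted p = 0.0129, and 0.0964 and 0.0993 without 120 and 150 min). YLR108C, also uncharacterised, read 2.12, 1.98 and 1.87 after 2 g/l and -2.04, -0.04 and 0.12 after 0.2 g/l, where the 90 min array stood apart (2.65 ± 0.49, adjusted p = 0.00912, and 0.148 without 90 min).

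ITR1 (YDR497C), for the main inositol transporter, was above t=0 after 2 g/l (0.92, 0.80 and 0.59) and below it after 0.2 g/l (-0.94, -1.25 and -1.33). The difference was 1.94 ± 0.31 (3.84-fold, limma adjusted p = 0.00344), called without each pair in turn but not relative to the early windows. The spots of ITR1 disagreed with a median absolute difference of 0.95 on the log2 scale. It was the 1 called gene of 14 for phospholipid synthesis (0.877% of all genes were called higher). All 14 had a difference above 0 (as had 2926 of all 5362 genes). The median of the 14 was 0.57, and 10 higher genes did not overlap (15.4% of all genes). INO1, for inositol phosphate synthase, read 0.96, 1.98 and 2.36 after 2 g/l and 1.56, 0.65 and 0.52 after 0.2 g/l, which overlapped (0.86, adjusted p = 0.403).

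A few further called genes are named after their values were seen. ARE2, for a sterol acyltransferase, read 0.31, 0.40 and 0.59 after 2 g/l and -0.77, -1.11 and -1.09 after 0.2 g/l (1.42 ± 0.20, limma adjusted p = 0.00239). PUF3, for a protein that binds mRNAs of mitochondrial proteins, read 0.63, 0.31 and 0.20 against -0.97, -1.08 and -1.02 (1.41 ± 0.23, adjusted p = 0.00344). Both were called without each pair in turn, and for both the difference was present from the start, at 0.64 for ARE2 and 1.22 for PUF3 in the early windows. Each was called in 12 of 14 alternative fits, with a highest limma adjusted p of 0.297 for ARE2 and 0.901 for PUF3. VID24, for a subunit of the ubiquitin ligase that degrades fructose-1,6-bisphosphatase, was higher by 1.48 ± 0.30 (adjusted p = 0.0147, and 0.184 and 0.0748 without 90 and 150 min). Among lower genes, TKL2, for the minor transketolase, differed by -1.93 ± 0.49 (adjusted p = 0.0416), AGX1, for alanine-glyoxylate aminotransferase, by -1.83 ± 0.40 (adjusted p = 0.0225) and NCE103, for carbonic anhydrase, by -1.42 ± 0.28 (adjusted p = 0.0123), and these 3 were called in no fit that left out a pair.

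Few genes of the translation machinery passed the test. Of 132 cytosolic ribosomal protein genes 3 were higher and 0 lower, while 130 had a difference above 0 (2926 of all 5362 genes), the median was 0.54, and 77 higher genes (15.4% of all genes) and 1 lower gene did not overlap. RPP2A (YOL039W), for an acidic stalk protein, read 1.34, 0.65 and 0.32 after 2 g/l and 0.07, -0.60 and -0.62 after 0.2 g/l (1.16 ± 0.22, limma adjusted p = 0.0103). Its values fell with time in both cultures, and at each time the large pulse was higher. RPL7A (YGL076C) and RPL3 (YOR063W), for proteins of the large subunit, differed by 1.13 ± 0.24 and 0.84 ± 0.21 (adjusted p = 0.0164 and 0.037). RPL7A has a near-identical copy whose signal cannot be told apart. The list median was 0.80, 0.64 and 0.14 at the 3 times, and no ribosomal protein gene was called without any 1 of the pairs. After quantile normalization 33 of them were called higher, as were 244 of all 5362 genes.

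Ribosome biogenesis had 1 higher gene of 113, near the 0.877% over all genes tested. It was EMG1 (0.98 ± 0.25, limma adjusted p = 0.0415), for a methyltransferase of the small subunit. The list median was 0.35, and 106 of the 113 had a difference above 0 (2926 of all 5362 genes). Arrays did not overlap for 38 higher genes and 1 lower gene (15.4% and 16.4% of all genes). Translation factors had 1 higher gene of 33 (0.877% of all genes), TEF4 (0.88 ± 0.21, adjusted p = 0.0323), for an elongation factor subunit, with a median of 0.39. Of the 33, 29 had a difference above 0, and 17 higher and 0 lower genes did not overlap (15.4% and 16.4% of all genes). In amino acid biosynthesis 2 genes of 57 were higher, ASN1 (1.02 ± 0.24, adjusted p = 0.0339), for asparagine synthetase, and LYS4 (0.92 ± 0.20, adjusted p = 0.0234), for homoaconitase. The 3 lower ones were CPA1, GDH3 and LEU4 (-0.82, -0.81 and -0.62), and the median was 0.14. Of all genes, 1.75% were called lower. Of these 7 genes none was called when any 1 pair was left out. After quantile normalization 9 genes of ribosome biogenesis, 4 translation factor genes and 7 of amino acid biosynthesis were higher. In that fit 4 genes of amino acid biosynthesis were lower, and of all 5362 genes 244 were higher and 381 lower.

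Single calls stood in other lists. Over all genes tested, 0.877% were called higher and 1.75% lower. Lower were DUR3 (-1.46 ± 0.34, limma adjusted p = 0.0325), for a urea transporter, and ASP3-1 (-0.81, adjusted p = 0.0132), for an asparaginase whose identical copies cannot be told apart, among 27 genes under nitrogen catabolite repression (median 0.06). DSE1 (-0.92, adjusted p = 0.0147) and PIR3 (-0.83, adjusted p = 0.0225) were lower among 23 genes of the M to G1 phase (median -0.13), and both encode proteins of the cell wall or cell separation. Further lower genes were SPS19 (-1.17) of 31 for fatty acid oxidation and the peroxisome (median -0.25), THI11 (-0.95), 1 of a near-identical family, of 15 for thiamine metabolism (median -0.38), ATP14 (-0.77) of 35 for the respiratory chain and ATP synthase (median -0.27) and TIP1 (-0.70) of 25 for the cell wall (median -0.15). AHP1 (1.05), for a thiol peroxidase, was the 1 higher gene of 17 for peroxide and redox defence (median -0.08). Of these 9 genes, ASP3-1, PIR3 and TIP1 were called without the 90 min pair (adjusted p = 0.0423, 0.0452 and 0.0426), and none was called without 120 or 150 min.

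In the other 20 lists limma called 0 genes in either direction. Over all genes tested, 16.4% did not overlap and were lower, 15.4% did not overlap and were higher, and 16.6% had an unadjusted p under 0.05. The lower medians were -0.31 for 18 TCA cycle genes (10 of which did not overlap and were lower, 3 at an unadjusted p under 0.05), -0.33 for 7 copper genes (3), -0.25 for 13 HAP activator and mitochondrial carrier genes (5), -0.25 for 10 genes of sucrose and maltose use (1), -0.16 for 33 proteasome genes (3), -0.13 for 17 meiosis genes (3) and -0.01 for 26 mating genes (5), with the count at an unadjusted p under 0.05 in parentheses. The higher medians, given in the same way, were 0.36 for 29 genes of sulfate assimilation and methionine (8), 0.36 for 20 purine genes (1), 0.31 for 18 G2 to M genes (3), 0.29 for 10 pyrimidine genes (1), 0.24 for 9 zinc genes (1), 0.20 for 19 genes of RNA polymerases I and III (0) and 0.20 for 8 glycerol genes (2). Still nearer to the median of all genes were 10 histone genes at 0.16 (1), 63 mitochondrial ribosomal protein genes at 0.15 (9), 25 chaperone genes at 0.15 (3), 32 sterol and fatty acid genes at 0.08 (6), 20 phosphate genes at 0.07 (0) and 33 G1 to S genes at 0.02 (3). Genes without overlap were not confined to the TCA cycle. Higher and lower, they numbered 12 and 1 for sulfate and methionine, 8 and 0 for purine genes and 8 and 0 for G2 to M genes. Copper genes had 1 and 4, and HAP activator and carrier genes 0 and 6.

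HXT4 and FBP1 had nearly equal values after both pulses at 15 min and were apart by 45 min. HXT4 was at 3.42 ± 0.29 after 2 g/l and 2.34 ± 0.86 after 0.2 g/l at 15 to 45 min (SD, 4 arrays each), and then at 3.20 ± 0.25 and 0.02 ± 0.16 at 90 to 150 min (SD, 3 arrays each). FBP1 was at -2.41 ± 0.12 and -1.76 ± 0.67 in the earlier window and at -2.56 ± 0.08 and 0.53 ± 0.10 in the later one. At 15 min HXT4 stood at 3.46 after 0.2 g/l and 3.54 after 2 g/l, and FBP1 at -2.41 and -2.49. At 45 min HXT4 stood at 1.47 and 3.62, and FBP1 at -0.92 and -2.24.

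HXT7 followed another course. It was at 1.66 ± 0.49 after 2 g/l and 4.00 ± 0.48 after 0.2 g/l at 15 to 45 min, and the order turned at 90 min. After 2 g/l it kept rising to 5.41 at 180 min and was still at 2.40 at 240 min. HXK2 turned as well, from -0.39 to 0.38 after 2 g/l and 0.86 to 1.05 after 0.2 g/l at 15 to 45 min to the late values given above.

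After 2 g/l the medians of the called genes were nearer to t=0 at 180 to 240 min, a window with no arrays after 0.2 g/l. The genes were called by their values at 90 to 150 min, which alone draws their medians in another window towards t=0. A return was not tested. The median over the 47 higher genes was 0.80 at 90 to 150 min and 0.18 at 180 to 240 min, and over the 94 lower genes -0.84 and -0.11. These medians were -0.25 and 0.23 after 0.2 g/l at 90 to 150 min. HSP26 went to 0.81 ± 0.59 and FBP1 to -0.63 ± 0.69 (SD, 3 arrays) at 180 to 240 min, and FRE3 stayed lower, at -1.98 ± 0.32.

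**Figure D5:**
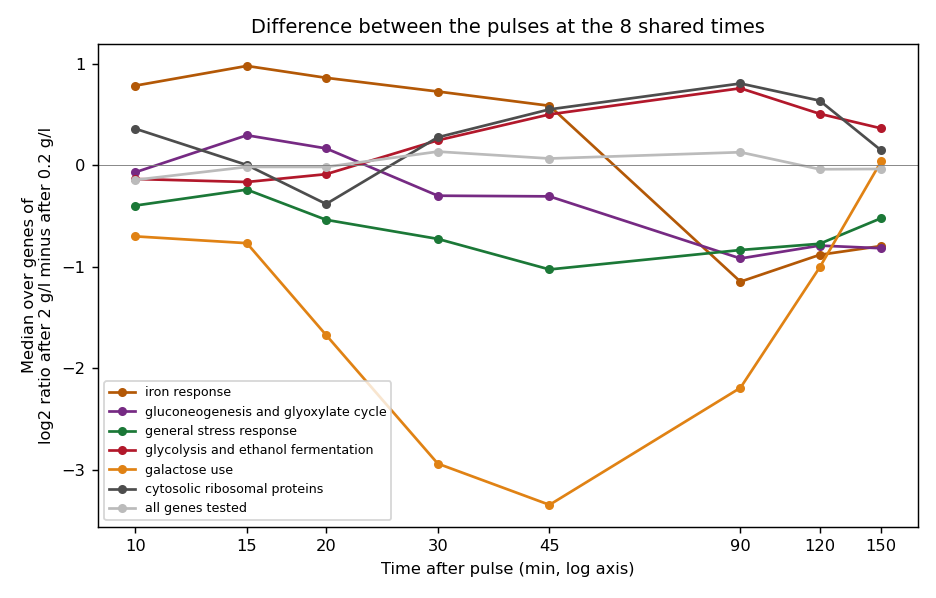
Median over the genes of a list of the difference between the pulses (vertical axis, log2) against time on a log axis, at the 8 times measured after both pulses, with all genes tested in grey. The iron list goes from 0.58 at 45 min to -1.15 at 90 min, the galactose list returns from -2.19 at 90 min to 0.04 at 150 min, and the gluconeogenesis list stays between -0.92 and -0.79 from 90 to 150 min.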

How the data were processed

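The authors deposited 1 normalized log2 ratio per spot and array. The log2 scale and the direction (Cy5, the time after the pulse, over Cy3, t=0) were inferred from the values and the labels, with the normalization and the imaging program not given in the sources used here. Of 10752 spots, 6834 were paired with 1 gene and 3918 with none, and all 5606 genes matched the yeast annotation (assembly R64), used for names only. Each gene's value is the mean of its spots. Among the 1165 genes with more than 1 spot, 247 (21.2%) had spots whose median absolute difference exceeded 0.5. No signal over background was used, so a large ratio from a weak spot is not set apart here. Precision is limited by how many arrays there are.

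Genes with at least 2 complete late pairs and at least 2 values in each of 7 windows of pulse and time entered the test (5362, while 244 did not). The fit was limma 3.58.1 (lmFit and eBayes, R 4.3.3) over all 26 arrays, with a block for each time shared by the pulses in the middle and late windows. The early and last windows had no such block, so change with time within them entered the residual spread. Late 2 g/l minus late 0.2 g/l was tested two-sided, with Benjamini-Hochberg adjustment over all genes and a threshold of 0.05. Tested on simulated data for this comparison with 5362 genes, the fit recovered 41.8% of changes of log2 size 1, 86.6% of size 2 and 98.5% of size 3, with 5 false calls. The simulated noise was independent between arrays, with no culture effect and no offset between t=0 references. The false calls therefore do not cover errors from those sources in the real arrays. Data preparation and figures used Python 3.11.15, pandas 2.3.3, numpy 2.4.6 and matplotlib 3.10.9.

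The 6 arrays and the 40 gene lists, which were written from general knowledge of yeast, were chosen with earlier results of these data known, and no list was given a test. Named genes are those called without overlap of their arrays that had the 10 highest and 10 lowest estimates, all tested genes for galactose use, hexose transport and iron, and up to 3 called genes of each other list. Other genes are named as examples of a list, or as chosen after their values were seen. Promoter motifs were planned and not run, since no sequences are used here. Alternatives changed the pairing, the arrays in the fit, the normalization, the centring, the spots, the missing values, the prior of the spread and the fold, or left out each pair.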

Additional observations from a re-analysis of the deposited data

Results flagged for a closer look

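Among the 86 genes that the naming rule gave, 12 had all 4 paired differences at 15 to 45 min on 1 side of 0 and all 3 late ones on the other. Other genes were not searched. The rule took in all tested iron, hexose transport and galactose genes but few of other lists, so the 12 do not show which groups turned most. The change between the windows was not tested for single genes. The late differences (2 g/l minus 0.2 g/l, log2), each followed by the mean difference at 15 to 45 min, were as follows. For the iron genes they were -1.77 and 2.36 for FIT2, -1.76 and 1.14 for SIT1, -1.65 and 1.82 for FRE1 and -1.33 and 1.19 for ARN1. FET3 had -1.17 and 1.20, TIS11 had -1.08 and 1.45, CCC2 had -1.08 and 1.01 and ISU1 had -1.03 and 0.45. FRE6 (-0.56 and 0.65) and FRE5 (-0.56 and 1.23) were not called late. Of the genes for sugar use, HXT7 had 3.91 and -2.34 and HXK2 had 0.96 and -1.01.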

How the results depend on the processing

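The 141 called genes (47 higher, 94 lower) became 625 (244 and 381) after quantile normalization, 33 (12 and 21) with the replicate block and the 6 late arrays alone, and 78 (30 and 48) when a difference of at least 2-fold was also asked for. With the block and the late arrays alone, 26 calls were shared with the 141. In that fit 4 of 27 iron genes, 4 of 49 stress genes and 6 of 24 genes for gluconeogenesis and the glyoxylate cycle were lower. Higher were 3 of 20 genes for glycolysis and fermentation and 0 of 132 ribosomal protein genes. Leaving out the pair of arrays at 90, 120 or 150 min gave 24 to 38 calls (8 to 22 higher, 14 to 26 lower). Relative to the early windows, an alternative added after seeing the data, 26 genes (4 and 22) were called, 22 of them shared with the 141. Counts stayed within a factor of 1.5 with no replicate block (163, with 130 shared), no block and the late arrays alone (171), median centring (149), the median of spots (141), discordant spots left out (148), genes on all arrays (147 of 4028 genes), a trended and robust prior (109), and, also added after seeing the data, no block without the array of 0.2 g/l at 90 min (121). Deviations of arrays of the same time from their window means correlated with r of -0.036 at 90 min, -0.001 at 120 min and -0.12 at 150 min, so the times share only a number and the pairing moved the count from 163 without the block to 141 with it.

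Of 52 called genes that the naming rule gave, 51 stayed called after quantile normalization, 48 with no replicate block, and 22, 14 and 16 without 90, 120 and 150 min. Signs turned only for genes that were not called. Over the fits that left out a pair the differences ranged from -0.395 to 0.172 for CTH1 (0.119 without 90 min), from -0.0685 to 1.08 for FIT1, from -0.37 to 0.405 for HXT10, from -0.207 to 0.503 for HXT11, from -2.10 to 0.107 for HXT13, from -0.99 to 0.148 for HXT17 and from -0.478 to 0.23 for HXT9. Relative to the early windows GAL3 became 0.16, GAL4 0.82, GAL80 0.39, HXT17 0.86 and HXT9 0.52. Quantile normalization turned GAL80 to 0.0159 and HXT10 to -0.14, median centring turned GAL80 to 0.00908, and no block without the 90 min array of 0.2 g/l turned GAL80 to 0.076, HXT10 to -0.27 and CTH1 to 0.0525. The cause was not tested. Depth is not known for these arrays, and 3 time points of 1 culture a pulse limit what can be called.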

Other observations

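Some further called genes are given as single values, chosen after they were seen and with no tally of related genes. Of genes for glutathione transferases, ECM4 differed by -1.22 (limma adjusted p = 0.0238), GTO3 by -1.01 (adjusted p = 0.0296), whose spots disagreed by 0.94, and GTT1 by -0.83 (adjusted p = 0.0291). These 3 lost their calls without any 1 pair of arrays. Of the drug exporter genes QDR1 and SGE1, QDR1 differed by -1.32 (adjusted p = 0.0424, and 0.314, 0.145 and 0.0993 without 90, 120 and 150 min) and SGE1 by -0.81 (adjusted p = 0.00884, and 0.117 and 0.0622 without 90 and 120 min). UCC1, for the F-box protein that marks the glyoxylate cycle's citrate synthase for degradation, was higher by 0.78 (adjusted p = 0.0385), and it lost its call without any 1 pair.

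Among called genes near chromosome ends, COS1 and COS2, of a family of closely alike genes that cannot be told apart here, were lower after 2 g/l by -0.91 and -0.89 (limma adjusted p = 0.0108 and 0.0147). YEL077C and YIL177C, which resemble each other, were lower by -0.76 and -0.62 (adjusted p = 0.0103 and 0.0218), while YBL112C was higher by 3.07. YEL077C stayed called without 120 min (adjusted p = 0.041), and COS1, COS2 and YIL177C lost their calls without any 1 pair.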
